A study of Drosophila melanogaster with 6 samples.

Results

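The intervals described here lie at 6 transcription factor genes of postmitotic T4/T5 neurons, the direction-selective cells of the Drosophila optic lobe: Drgx, acj6, SoxN, Sox102F, fkh and tup. An interval was taken when it overlapped the body of any of these genes, or reached within 20 kb of it, in the Release 6 RefSeq gene table. This gave 21 of the 2396 intervals of the deposited list (0.876%), and every gene of the 6 had at least 2. In Targeted DamID, the method of the study, a Dam methylase from bacteria is made in chosen cells either by itself or joined to a factor, here Drgx, and the DNA it has methylated is sequenced. All animals carried UAS-CD8-GFP, tubGal80ts and R23G12-Gal4. The 3 control samples also carried UAS-Dam, and the other 3 carried UAS-Dam-DRGX. Larvae were reared at 18 °C to the third instar and moved to 29 °C for 24 h, a temperature at which the Gal80 repressor is inactive. Whole brains were then dissected, so the cells profiled are those in which R23G12-Gal4 is active, and the list holds no expression value by which their identity could be checked.

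Dam methylates adenine in GATC, a mark that fly DNA otherwise nearly lacks, and the fusion brings the enzyme to the places a factor visits. Dam alone marks open chromatin and serves as the control. Drgx is a Paired-like homeodomain protein, a class that binds DNA through a helix-turn-helix fold and can pair on palindromic sites rich in TAAT. The name comes from its vertebrate relative in dorsal root ganglia. Neuronal identity factors of this kind often act on one another's genes and on their own, so the question put to the list was where its intervals lie around the genes of the set.

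The list gives each interval 1 value of the authors' score and 1 false discovery rate, and names no sample. The scale of the score is not given in the sources used here, so it serves only to rank intervals within the list. No replicate value or depth belongs to an interval, no spread between samples could be computed, and no comparison below carries a test. The list was taken to be the outcome of Dam-Drgx against Dam alone. Over the whole list the score ran from 1.24 to 6.47 with a median of 2.83 and an upper quartile of 3.62, and the width had a median of 1617 bp.

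The 6 genes fell into 2 arrangements. Drgx, acj6 and Sox102F, with bodies of 28.8 to 34.0 kb, held their intervals mostly inside the body. SoxN, fkh and tup had none in the body and all of them in the flanks. Of the 21 intervals, 7 touched a body and 14 lay in flanks, with 7 on the side of lower and 7 on the side of higher coordinates. The gene table gives no strand, so these sides are not called upstream or downstream. Among all 13922 protein-coding genes of the 6 chromosome arms, 47.0% had an interval within 20 kb and 8.32% had one overlapping the body. The count of 6 genes of 6 within 20 kb is to be read against the first share, and the 3 of 6 with a body interval against the second. The 3 genes with body intervals are long. Of coding genes of 0.5 to 2 times their lengths, 40.8% to 46.1% had a body interval. By the same measure the share was 4.75% for SoxN, 4.82% for fkh and 31.3% for tup, so most genes of their lengths also had none.

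**Figure D1:**
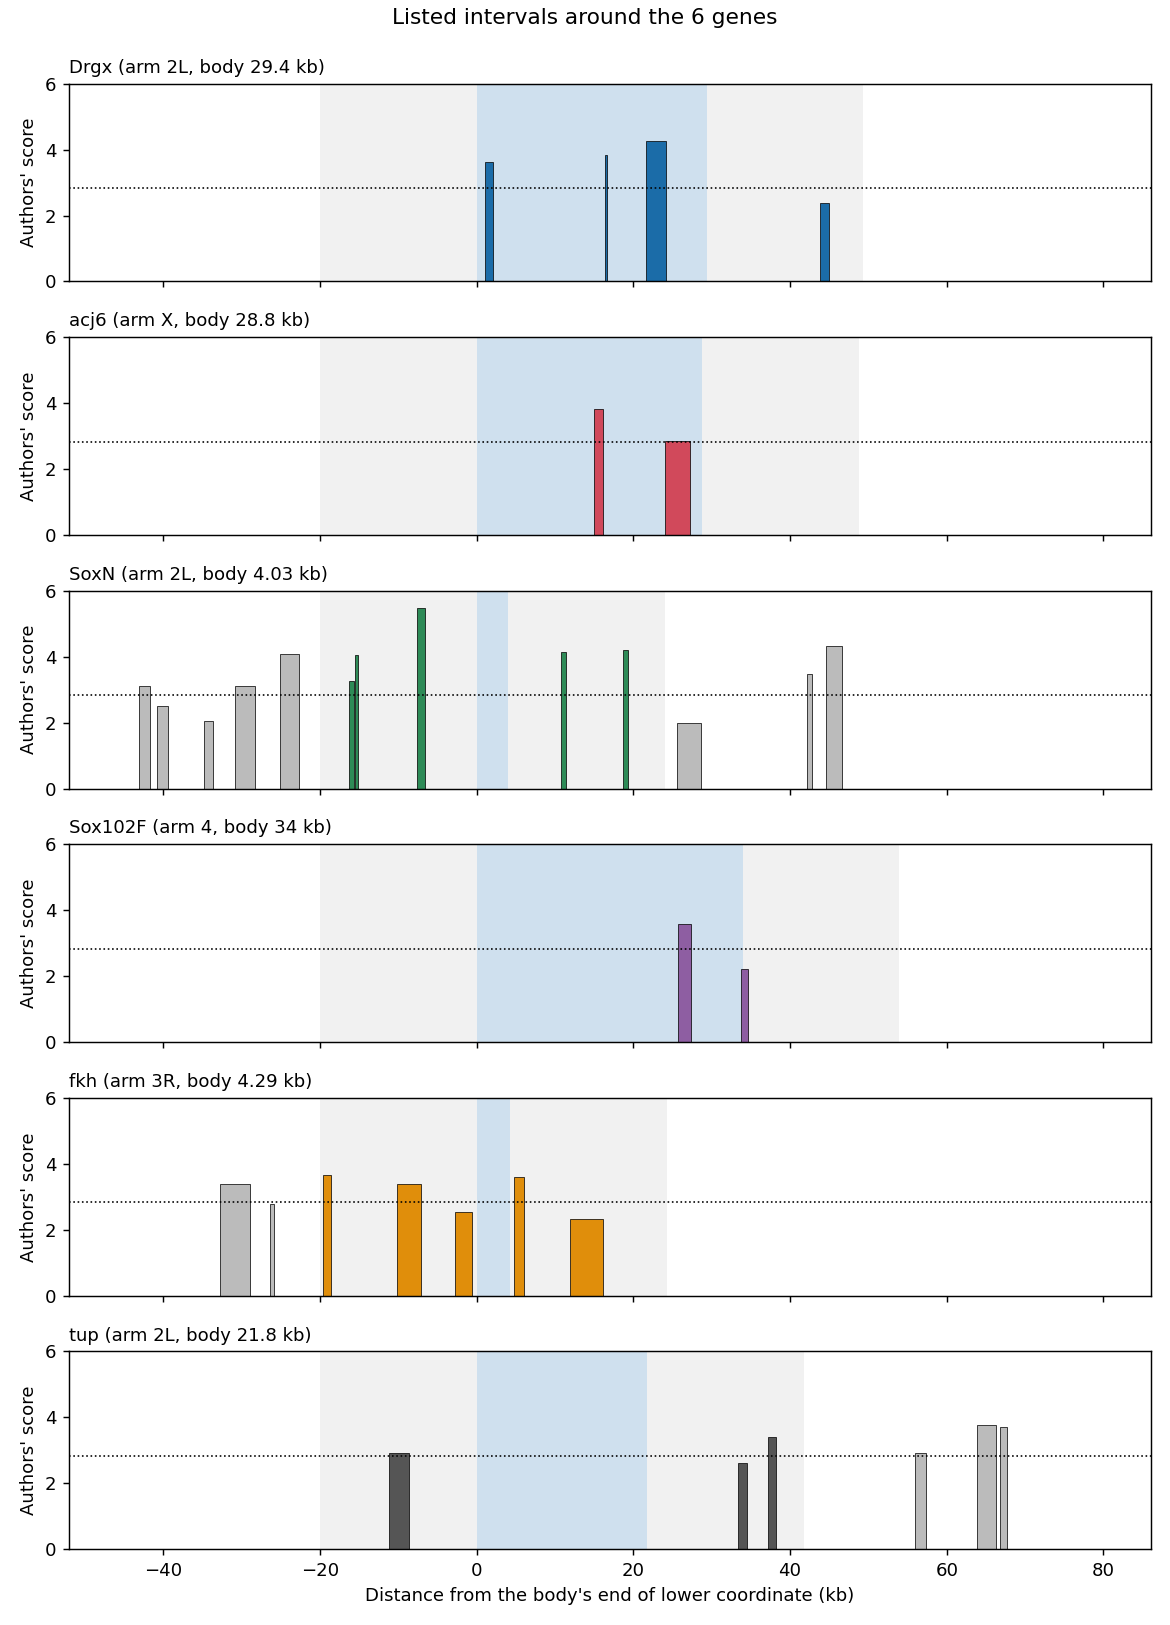
Listed intervals around each of the 6 genes. The horizontal axis is the distance in kb from the body's end of lower coordinate, bar height is the authors' score, bar width is the interval's width, blue shading is the gene body, light grey shading the 20 kb flanks, grey bars are intervals beyond 20 kb, and the dotted line is the list's median score of 2.83. The bars of Drgx, acj6 and Sox102F stand mostly on the body, and those of SoxN, fkh and tup stand beside it.

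Drgx (CG34340) occupies 2L from 3662745 to 3692114, a body of 29.4 kb, and its own locus held 3 intervals. The interval from 3663762 to 3664870 began 1017 bp inside the lower end of the body and had a score of 3.62. The interval from 3679101 to 3679437 was the narrowest of the 21, at 337 bp, and had a score of 3.85. The third, from 3684331 to 3686894, was 2564 bp wide and had a score of 4.27. All 3 stood at or above the list's upper quartile, and the widest of them was also the highest. Their false discovery rates were 2.17e-10, 1.40e-09 and 1.76e-12. Of all coding genes 1.03% had 3 or more body intervals, and of those of similar length to Drgx 5.82% had. The Dam-Drgx transgene carries Drgx coding sequence that the Dam-only animals lack, and methylated fragments from the transgene and from the locus cannot be told apart in the list. Which of the 3 intervals hold coding exons was not analysed here.

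A further interval reached the 20 kb flank of Drgx at 3706518 to 3707773, 14403 bp beyond the end of higher coordinate. Its score was 2.38, below the list's median, and its false discovery rate of 0.000739 was shared by 93 intervals. It overlapped CG31777 and cutlet, and 21 coding genes lay nearer to it than Drgx did. The body of Drgx also contains 4 seminal fluid protein genes, Sfp24Ba, Sfp24Bb, Sfp24Bc and Sfp24Bd, and none of the intervals overlapped them. Of all coding genes 2.72% had 4 or more intervals within 20 kb, and of the 1151 of similar length 7.47% had.

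acj6 (CG9151) encodes a POU-homeodomain protein known for setting receptor choice and axon targeting in olfactory neurons, and it is a marker of T4/T5 neurons. Its body of 28.8 kb lies on X from 15350239 to 15379064 and held 2 intervals. The interval from 15365202 to 15366390 lay near the middle of the body, 14963 bp from its lower end, and had a score of 3.83 with a false discovery rate of 1.15e-11. The interval from 15374230 to 15377462 was 3233 bp wide, ended 1602 bp before the upper end of the body, and had a score of 2.86. The narrower of them thus ranked at position 462 of the list, and the wider stood close to the list's median. Neither touched Pp1-13C, a phosphatase gene nested in the body, and acj6 was the nearest coding gene to both. No further interval lay within 50 kb. Having 2 intervals or more was common at this length: 34.4% of 1161 coding genes of similar length did within 20 kb.

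tup (CG10619, also known as islet) encodes a LIM-homeodomain protein known for motor axon projection and for dopaminergic and serotonergic neuron fate. Its body of 21.8 kb on 2L, from 18859507 to 18881261, held no interval. Most coding genes of similar length had none in the body either, and 31.3% had one or more. On the side of higher coordinates, the interval from 18892810 to 18894015 lay 11548 bp away with a score of 2.63. The next, from 18896702 to 18897678, lay 15440 bp away with a score of 3.41. Both overlapped lncRNA:CR44737, a non-coding gene, and no coding gene was nearer to either than tup. On the other side, the interval from 18848287 to 18850866 lay 8640 bp away with a score of 2.92. That interval overlapped CG17321, and 6 coding genes lay nearer to it than tup. All 3 scores of tup were below the list's upper quartile. Of similar-length genes, 13.1% had 3 intervals or more.

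SoxN (CG18024) encodes a SoxB1 high-mobility-group protein known from the formation of the neuroectoderm and its neuroblasts, and reported as a regulator of T4/T5 maturation. It is a short gene, 4026 bp on 2L from 8825645 to 8829670, and no other annotated gene of any kind lay within 20 kb. Around it stood 5 intervals, none in the body. On the side of lower coordinates the scores were 3.25 at 8809354 to 8810025, 4.06 at 8810094 to 8810534 and 5.49 at 8818024 to 8819052. On the side of higher coordinates they were 4.13 at 8836413 to 8837035 and 4.20 at 8844311 to 8844926. All 5 were above the list's median and 4 above its upper quartile. No other gene of the set had more than 2 intervals above that quartile. The highest ranked at position 8 of 2396, and 0.215% of coding genes had an interval of that score or above within 20 kb.

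The intervals of SoxN were narrow, from 441 to 1029 bp, all below the list's median width. Their false discovery rates ran from 1.16e-12 to 6.97e-07. Their distances from the body were alike on both sides. The nearest lay 6592 bp below and 6742 bp above it, and the next lay 15110 and 15619 bp below and 14640 bp above. The pair at 15110 and 15619 bp was separated by 68 bp, so that joining neighbours within 1 kb leaves 4 intervals. With 5 intervals SoxN stood among the 1.25% of coding genes that had as many or more, and among 0.672% of the 5056 of similar length. Of the 141 coding genes without another coding gene within 20 kb, 5.67% had 5 or more.

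**Figure D2:**
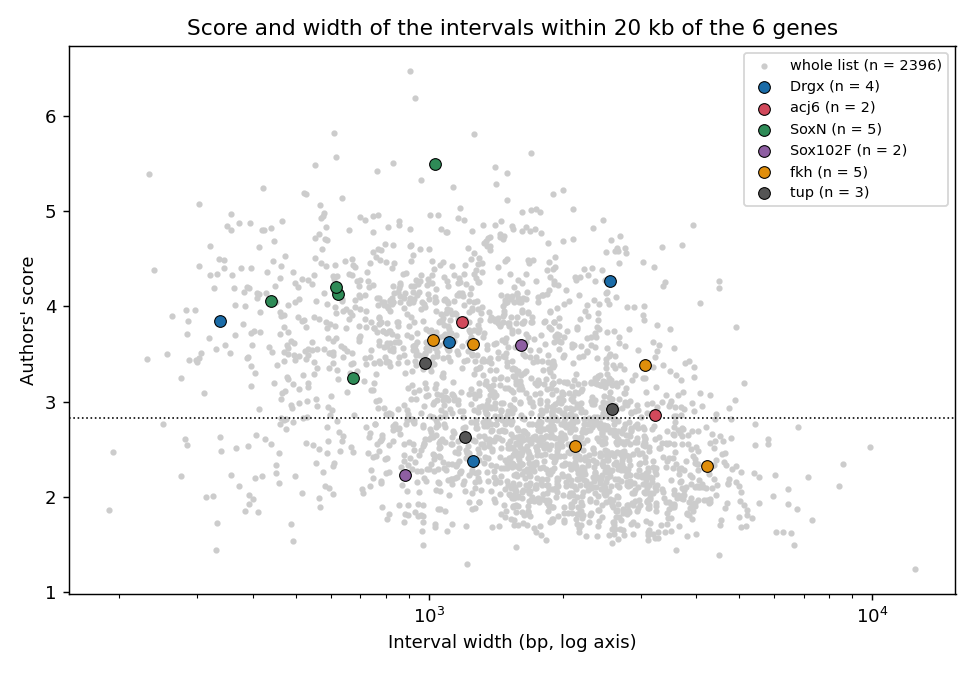
Width (bp, log axis) against the authors' score for each interval of the list (grey) and for the intervals within 20 kb of the 6 genes (coloured by gene), with the list's median score of 2.83 as a dotted line. The SoxN points lie at widths of 441 to 1029 bp with scores of 3.25 to 5.49, and the points of fkh spread to widths of 4246 bp and a score of 2.32.

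Sox102F (CG11153) encodes a SoxD protein of the same high-mobility-group superfamily, likewise reported in T4/T5 maturation. It is the longest of the set, 34.0 kb on chromosome 4 from 800436 to 834393, and it held 2 intervals. The interval from 826146 to 827758 lay in the body, 25.7 kb from its lower end, with a score of 3.59 and a false discovery rate of 2.97e-07. The interval from 834198 to 835080 crossed the upper end of the body and reached 687 bp beyond it, with a score of 2.23. The latter was the lowest score of the 21 intervals. Its false discovery rate of 0.00883 was the highest in the list, a value that 127 intervals shared. Sox102F therefore kept a single interval under a limit of 0.0001. Of 1039 coding genes of similar length, 38.1% had 2 intervals or more within 20 kb.

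fkh (CG10002) encodes the founding member of the forkhead family, a FoxA protein known from the gut and the salivary gland. It is also short, 4289 bp on 3R from 28580976 to 28585264, and 5 intervals lay in its flanks. The 2 closest bracketed the gene. The interval from 28578242 to 28580379 ended 596 bp below the body with a score of 2.53, and the interval from 28585736 to 28586994 began 471 bp above it with a score of 3.60. These were the nearest flank intervals of the whole set. Their false discovery rates were 0.00120 and 0.00570, the highest among the 5 intervals of fkh.

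Farther from fkh, the interval from 28570870 to 28573933 lay 7042 bp below the body with a score of 3.38. The interval from 28561343 to 28562364 lay 18611 bp below it with a score of 3.65, the highest of the 5. The interval from 28592881 to 28597126 lay 7616 bp above the body with a score of 2.32 and, at 4246 bp, was the widest of the 21. Coding genes other than fkh were nearest to the last 2 of these: mIF2, a mitochondrial initiation factor gene, to the former and Noa36 to the latter. The non-coding genes lncRNA:CR43126 and lncRNA:CR43440, overlapped the 2 intervals above the body. The intervals covered 26.5% of the window from 20 kb below to 20 kb above fkh, against 3.37% to 7.71% at the other 5 genes and 3.27% of the 6 chromosome arms. Of the 11729 bp covered, 4246 bp belong to the interval nearest to Noa36 and 1022 bp to that nearest to mIF2. The share of coding genes with as much coverage was not computed. Of 4814 coding genes of similar length, 0.665% had 5 intervals or more.

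Counts per gene were then set against all coding genes. The density was 11.4 intervals per 100 kb in the window of SoxN and 11.3 in that of fkh. It was 5.77 at Drgx, 4.86 at tup, 2.91 at acj6 and 2.70 at Sox102F, and 1.79 over the 6 arms. SoxN and fkh thus had the same number and nearly the same density, with different scores: 3.25 to 5.49 at SoxN and 2.32 to 3.65 at fkh. Counts of 3 or more, as at 4 of the 6 genes, were found at 7.15% of coding genes, and counts of 2 or more, as at all 6, at 18.8%. Having 3 or more intervals in the flanks and none in the body, as at SoxN, fkh and tup, was seen at 4.30% of coding genes. Among genes of similar length the share was 4.49% for SoxN, 4.45% for fkh and 2.46% for tup. Having 2 or more in the body and none elsewhere within 20 kb, as at acj6 and Sox102F, was seen at 1.21% of coding genes, and at 7.75% and 10.01% of those of similar length to acj6 and to Sox102F. These last 2 descriptions were chosen after the values were seen.

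**Figure D3:**
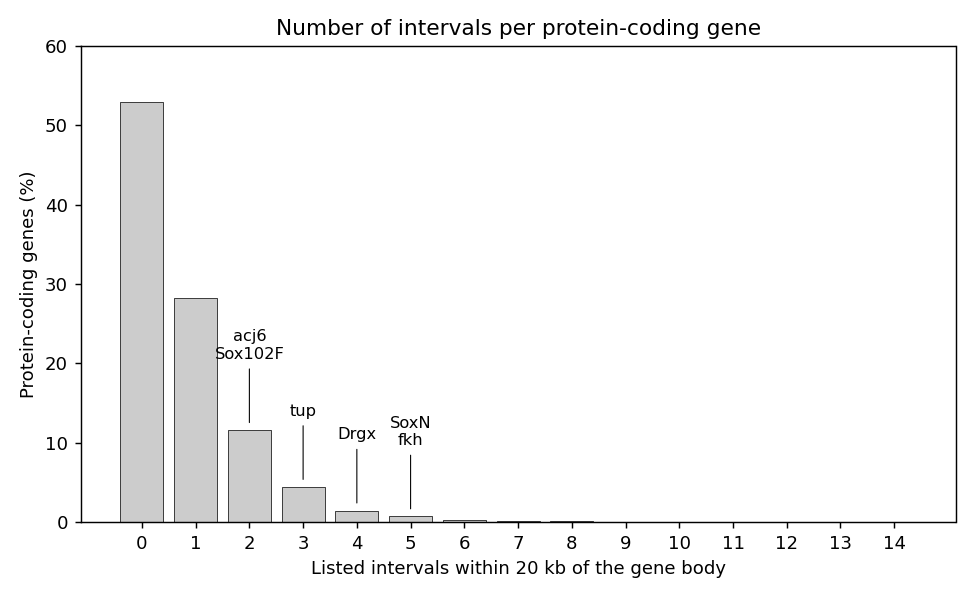
Share of the 13922 protein-coding genes (vertical axis, %) with each number of listed intervals within 20 kb of the body (horizontal axis), with the 6 genes marked. Genes with no interval make up 53.0%, and the 6 genes stand at 2 to 5 intervals.

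As a group, the 21 intervals had a median score of 3.59 against 2.83 in the list. Of them 16 (76.2%) were above the list's median, where 49.9% of the list lies, and 8 (38.1%) above its upper quartile, where 24.8% lies. SoxN held 4 of these 8, Drgx 2, acj6 1 and fkh 1, while tup and Sox102F held 0, so the share above the quartile leans on SoxN. The 17 intervals that remain without Drgx had a median of 3.41, and 76.5% of them were above the list's median. The 7 body intervals and the 14 flank intervals had medians of 3.62 and 3.40. Drgx gave 3 of the body intervals, at 3.62, 3.85 and 4.27. Those of acj6 were at 3.83 and 2.86, and those of Sox102F at 3.59 and 2.23. Medians of body and flanks without Drgx were not computed, so no order between the 2 places is read from these values. A false discovery rate of at most 0.0001 was given to 16 of the 21 (76.2%) and to 41.6% of the list. The median width was 1189 bp against 1617 bp in the list. Score and width ran in opposite directions among the 21 (Spearman's rho -0.46, n = 21, neighbouring intervals of a gene not being independent) as they did in the list (rho -0.44). The median gap to the closest other interval was 6206 bp against 9872.5 bp in the list. Every gene of the 6 had at least 2 intervals in its window, so the smaller gap in part restates those counts. These values describe the list, and whether the 21 differ from others of like width was not tested.

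The limit of 20 kb passed through runs of intervals at some genes and not at others. At acj6, Sox102F and Drgx no interval was added between 20 and 50 kb. At SoxN the count rose from 5 to 13, and 0.0718% of coding genes had 13 or more within 50 kb. Just outside the limit, an interval 21515 bp above SoxN had a score of 1.98 and an interval 22616 bp below it had a score of 4.07. Just inside it, the outermost interval of SoxN, 15619 bp away, had a score of 3.25, and that of fkh, 18611 bp away, had a score of 3.65. At fkh the count rose to 7 and at tup to 6. The added intervals of SoxN lay nearer to other coding genes, among them CG42710 and CG9483, and those of tup overlapped ssp3.

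**Figure D4:**
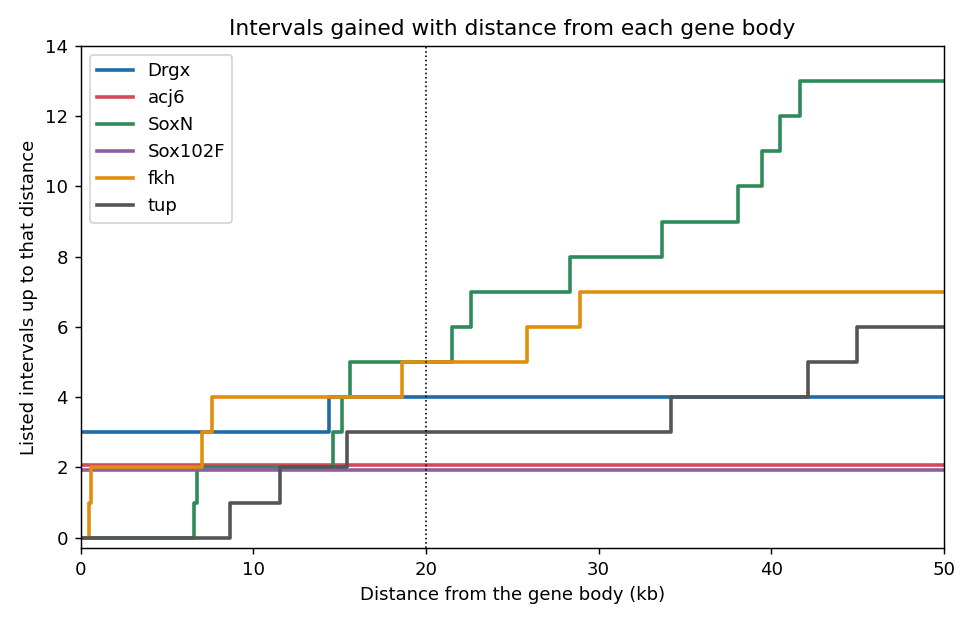
Number of listed intervals (vertical axis) up to each distance from the gene body in kb (horizontal axis) for the 6 genes, with the limit of 20 kb as a dotted line. Intervals overlapping the body count at distance 0, and the lines of acj6 and Sox102F, both at 2, are drawn slightly apart. SoxN climbs to 13 intervals by 50 kb, and acj6, Sox102F and Drgx stay at 2, 2 and 4.

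Each gene of the set was finally set beside the genes listed for its protein family, and the lists need not hold every member. In the Sox family, 7 of 8 genes had an interval within 20 kb (background 47.0% of coding genes) and the median was 3. SoxN, Sox21a and Sox21b each had 5, and the 5 intervals of Sox21a and Sox21b, which lie 4286 bp apart, were the same ones. Among the POU genes 3 of 5 had an interval, with the most, 3, at pdm2 and 2 at acj6. Among 16 forkhead genes 10 had an interval and the median was 1.5, with fkh the highest at 5 and the other genes at 0 to 3. All 7 listed LIM-homeodomain genes had an interval, with Lim1 the highest at 4 and a median of 2. Among 18 Paired-like homeodomain genes 12 had an interval, with Drgx the highest at 4 and the other genes at 0 to 3. So among the genes listed for each family, fkh and Drgx had the highest counts within 20 kb, SoxN shared it, and acj6, tup and Sox102F did not. The lead of Drgx rests on the flank interval that overlaps CG31777 and cutlet. With each interval given only to its nearest coding gene, fkh and Drgx had 3 each. The other listed genes of their families, at up to 3 within 20 kb, were not recounted by that rule. All 10 further transcription factor genes listed for the T4/T5 lineage had at least 2 intervals, a count that 18.8% of coding genes reached, with a median of 4 and the highest count, 6, at ato and dpn. Lim1 stands both in that list and among the LIM-homeodomain genes. That list was drawn up with results for many of its genes known.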

How the data were processed

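Targeted DamID was done on 3 Dam-only and 3 Dam-Drgx samples. The authors deposited a single interval list, in which the score is a positive number per interval with 2 decimals and the false discovery rate is written as text. Per the submitters' processing notes the build is BDGP6, the Release 6 assembly of the gene table. How reads were aligned, how intervals were called and filtered, and how replicates were combined is not given in the sources used here. Depth per sample is unknown.

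Starts were raised by 1 from the BED convention. An interval was assigned to a gene when at least 1 bp lay in the body or within 20 kb of it. Distances are bases between interval and body. Backgrounds are counts over the 13922 protein-coding genes on 2L, 2R, 3L, 3R, 4 and X. List names were matched to the table by symbol, or by synonym for Lmx1a. The rule for named genes took the 6, those nearer to one of their intervals, and the gene or genes with most intervals in each family list. Genes nested in a body or overlapped by an interval were named after the values were seen. Members and lists were chosen with earlier results of these data known. Counting was checked on simulated intervals for 200 genes against a slower count by the same rule, and 0 counts differed. Each simulated interval was placed beyond its gene's end of higher coordinate, so bodies and lower flanks were hardly checked. Alternatives were other flanks, stricter lists, midpoints, joined intervals, the nearest coding gene and Drgx left out. Promoter and protein sequences were not used here. The scripts ran under Python 3.11.15 with pandas 2.3.3, scipy 1.17.1, numpy 2.4.6 and matplotlib 3.10.9.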

Additional observations from a re-analysis of the deposited data

How the results depend on the processing

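No paired analysis was possible because the list names no sample, and for the same reason no replicate could be left out. All 6 genes kept an interval with flanks of 10 or 50 kb, among the 1203 highest-scoring intervals, with a false discovery rate of at most 0.0001, by midpoint, after joining and by the nearest coding gene only. With flanks of 1 or 5 kb 4 genes had an interval, and with the body only 3 had. The total of 21 intervals became 7 with the body only, 9 with 1 kb, 9 with 5 kb and 34 with 50 kb, which follows from the window itself, and it stayed between 14 and 21 in the other 7 alternatives. SoxN and tup had 0 intervals with the body only and with flanks of 1 and 5 kb, and fkh had 0 with the body only. The median score stayed between 3.41 and 3.62 in the 8 alternatives that gave one without a stricter list. Each of these used part of the 21 intervals, all of them, or all with others added, so their medians are not independent. The 95% interval of the median was 2.86 to 3.85. It covers only the error of drawing 21 intervals at random, whereas these are all the intervals that met the rule. The range also treats intervals as independent, which neighbours at a gene are not, so it is no measure of stability. The stricter lists select on the score or on a measure that runs with it, so their medians say nothing about stability: it was 3.63 among the 1203 highest-scoring intervals, where the list's own median was 3.62, and 3.63 under the stricter false discovery rate, where the list's was 3.44. The share of coding genes with an interval, 47.0%, was 8.32% with the body only, 10.9% with 1 kb, 19.9% with 5 kb, 30.3% with 10 kb and 77.8% with 50 kb. It was 28.2% with the 1203 highest-scoring intervals, 21.7% under the stricter false discovery rate, 45.7% by midpoint and 41.1% for coding genes with no other coding gene within 20 kb, an alternative chosen after seeing the data. After joining, the share was again 47.0%. No share was computed for the nearest coding gene only, so the 6 genes that kept an interval by that rule have no background. Among genes of similar length the share within 20 kb was 66.5% for Drgx, 65.9% for acj6, 44.4% for SoxN, 69.4% for Sox102F, 44.6% for fkh and 60.7% for tup.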
